A study of Homo sapiens with 12 samples.

Results

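The keratins of the basal epithelial layer, the keratins of stressed or activated epithelium, and the transcription factor TP63 were followed through 12 xenograft tumours. The members were the 8 human genes KRT5, KRT14, KRT15, KRT17, KRT6A, KRT6B, KRT16 and TP63, found by matching Ensembl identifiers to these symbols in GENCODE 29. They are 8 of 58243 human genes listed and 8 of the 18628 that had enough counts to be tested, and all 8 passed that filter. The tumours grew subcutaneously in athymic nude mice, which lack T cells and keep other host cells, from MCFDCIS, a human breast cell line whose grafts resemble ductal carcinoma in situ. Tumours had 2 weeks to establish and were then treated for 2 weeks with vehicle or with palbociclib, which blocks the kinases CDK4 and CDK6 that drive entry into the cell cycle, at 50 mg/kg by daily oral gavage. They were taken after treatment (vehicle initial, palbociclib initial) or after recovery of a duration not stated in the labels (vehicle recovery, palbociclib recovery), with 3 tumours in each of the 4 groups. All tumours derive from this 1 line, and the age and sex of the mice are not in the labels.

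Keratins build intermediate filaments by pairing 1 type I chain with 1 type II chain. In basal cells of stratified and glandular epithelia the usual pair is KRT5 (type II) with KRT14 (type I). KRT15 is a type I keratin of basal cells, KRT17 is a type I keratin of basal and appendage cells that is also induced by injury, and KRT6A and KRT6B (type II) pair with KRT16 (type I) in wounded or hyperproliferative epithelium. TP63 encodes p63, the regulator that establishes and maintains the basal state and is known to bind regulatory regions of KRT5 and KRT14.

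The type II members lie within 1 gene cluster of chromosome 12 on the minus strand of GRCh38. KRT6B (ENSG00000185479) is at chr12:52446651-52452126, KRT6A (ENSG00000205420) at chr12:52487174-52493257 and KRT5 (ENSG00000186081) at chr12:52514575-52520687. The type I members form a cluster on the minus strand of chromosome 17, with KRT15 (ENSG00000171346) at chr17:41513743-41522529, KRT14 (ENSG00000186847) at chr17:41582279-41586921, KRT16 (ENSG00000186832) at chr17:41609778-41615899 and KRT17 (ENSG00000128422) at chr17:41619441-41624842. TP63 (ENSG00000073282) spans chr3:189631416-189897279 on the plus strand. All 8 are annotated as protein-coding.

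Several members are near-identical copies of other genes, which limits how a count can be assigned to each, so the stretches concerned are shown first. Over their 1692 coding bases, KRT6A and KRT6B were 97.5% identical, and the third copy, KRT6C, was 97.9% identical to KRT6A and 98.5% identical to KRT6B. The following 60 bases, coding bases 663 to 722 counted from the start codon, are among the places where the copies can be told apart. They lie within 1 exon of each gene, at chr12:52491555-52491614 in KRT6A, chr12:52450439-52450498 in KRT6B and chr12:52472099-52472158 in KRT6C (GRCh38, minus strand, GENCODE 29 transcripts). Capitals mark the positions where the 3 copies differ.
KRT6A: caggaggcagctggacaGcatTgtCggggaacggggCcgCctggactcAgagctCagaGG
KRT6B: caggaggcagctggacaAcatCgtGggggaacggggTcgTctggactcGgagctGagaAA
KRT6C: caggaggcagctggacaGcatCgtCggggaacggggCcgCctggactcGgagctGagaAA
KRT6B differs from KRT6A here at G680A, T684C, C687G, C699T, C702T, A711G, C717G, G721A and G722A, with the KRT6A base first and positions counted along the coding sequence. KRT6C shares T684C, A711G, C717G, G721A and G722A with KRT6B.

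The reverse case is KRT14 and KRT16, whose coding sequences share an uninterrupted run of 158 bases. It lies in the first part of each coding sequence, at coding bases 304 to 473 of KRT14 (chr17:41586362-41586531) and 310 to 479 of KRT16 (chr17:41612210-41612379) when 6 bases on each side are included. Capitals mark the shared run. A read lying wholly within it could not be assigned to 1 of the genes from its own sequence alone.
KRT14: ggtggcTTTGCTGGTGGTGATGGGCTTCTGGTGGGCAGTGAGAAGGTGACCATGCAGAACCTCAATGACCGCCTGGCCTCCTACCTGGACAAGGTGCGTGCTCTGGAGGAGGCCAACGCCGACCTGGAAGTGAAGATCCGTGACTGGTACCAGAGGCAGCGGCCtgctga
KRT16: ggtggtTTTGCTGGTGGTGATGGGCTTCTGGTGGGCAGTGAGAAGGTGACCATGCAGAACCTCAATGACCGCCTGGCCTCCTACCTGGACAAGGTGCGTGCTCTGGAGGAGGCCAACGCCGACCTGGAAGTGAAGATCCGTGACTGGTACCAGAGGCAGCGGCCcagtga
Counted over all stretches of 50 bases in the main transcript, the share also found in another human gene's transcripts was 47.1% for KRT6B, 39.1% for KRT6A, 23.8% for KRT14, 22.0% for KRT16 and 17.4% for KRT17. KRT5 had 3.99%, KRT15 0.725% and TP63 none. Most of the sharing of KRT6A was with KRT6C (35.2%) and KRT6B (28.5%), and KRT14 shared 11.2% with KRT16. The sources used here do not say how the counting treated reads that fit several genes, so levels of KRT6A, KRT6B, KRT14, KRT16 and KRT17 are uncertain to that extent. The other copies had few counts: KRT6C had 36 to 246 per tumour, and no listed KRT16 or KRT17 pseudogene had more than 177.

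Counts on human genes came to between 6613880 and 12352064 per tumour, and mouse genes held 14.2% to 25.4% of gene counts. Mitochondrial genes held 5.32% and 11.2% of human counts in vehicle initial tumours 2 and 3 and between 0.674% and 2.64% in the other 10. Rows that name no gene, removed before counting totals, held 61.9% and 69.1% of all counts in these 2 tumours and 37.0% to 57.3% in the other 10. Their human totals were 7999208 and 6613880. Levels are given as counts per 1000000 human counts (CPM) after TMM scaling, which evens out differences in composition between libraries. These are bulk tumours, so fewer cells of a type and less RNA per cell cannot be told apart. Nothing in the labels says that the tumours of a group grew in separate mice, so the p-values speak only of the spread among tumours. All 8 basal markers (KRT5, KRT14, KRT15, KRT17, TP63, ITGA6, ITGB4 and COL17A1) were expressed. Their summed level, not adjusted for length, was 11668 to 17383 CPM against 2073 to 3728 CPM for 12 luminal markers. KRT15 and KRT17 had the highest group means of the 8. Group means of TP63 (68.9 to 126 CPM) and COL17A1 (252 to 571 CPM) lay below those of the luminal keratin KRT8 (989 to 1265 CPM). KRT8 (6484 to 15980 counts) and KRT7 (5576 to 14438) were the most abundant luminal markers. KRT18 had 2538 to 6002 counts, EPCAM 1280 to 3086, GATA3 109 to 290 and PGR at most 1. Of 8 myoepithelial markers, MYH11 and CNN1 had at most 3 counts in any tumour, while others were expressed: CALD1 had 2335 to 6000 counts, MYLK 1267 to 4049, TAGLN 405 to 1307 and ACTA2 137 to 761. The human haemoglobin gene HBB had none.

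Adjusted for transcript length, the 8 genes spanned about 2 orders of magnitude. Mean level per kilobase of the main transcript over 12 tumours was 2303 CPM per kb for KRT17, 1505 for KRT15, 733 for KRT14, 545 for KRT5 and 522 for KRT6B, followed by 88.9 for KRT16, 46.1 for KRT6A and 18.1 for TP63. Ranges over tumours overlapped between every pair of neighbours in that order except KRT6B and KRT16, which separates 5 abundant keratins from the other 3 genes. By CPM without length, KRT15 and KRT17 ranked 12 and 14 among all 18628 genes tested, KRT5, KRT14 and KRT6B ranked 47, 53 and 55, and KRT16, KRT6A and TP63 ranked 1370, 2041 and 2568. The place of KRT15 depends on its length: by the union of all annotated exons it had 510 CPM per kb, below KRT14 (534) and KRT6B (522). The RNAs of the 2 type II stress keratins thus differed in level on this scale, KRT6B being abundant and KRT6A much lower. Both levels carry the uncertainty from shared stretches given above, and which chains pair with each other was not measured.

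**Figure D1:**
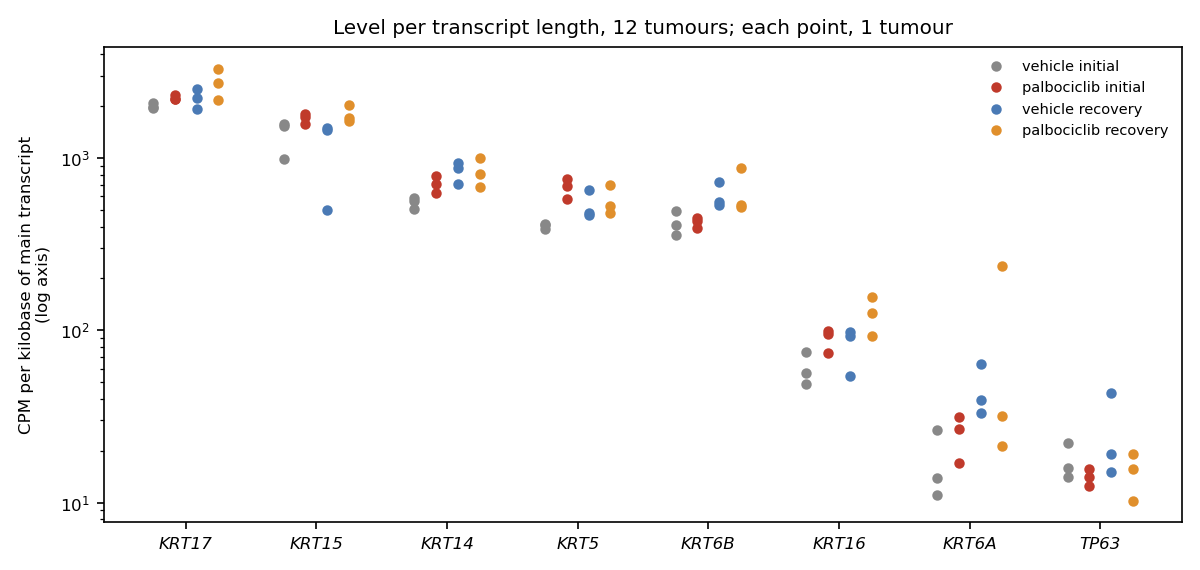
Level of each gene per kilobase of its main transcript (CPM per kb, log axis) in 12 tumours, 1 point per tumour coloured by group. KRT17, KRT15, KRT14, KRT5 and KRT6B lie above KRT16, KRT6A and TP63, and single tumours of KRT15, KRT6A and TP63 stand away from the others.

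Variability differed as much as level did. Over the 12 tumours the SD of log2 CPM was 1.15 for KRT6A, higher than in 99.6% of the 10880 genes with a mean of 8 CPM or more, whose median was 0.21. KRT15 (0.54), TP63 (0.52) and KRT16 (0.49) followed, each above 90.2% of those genes or more, then KRT6B (0.37), KRT5 (0.33) and KRT14 (0.30). KRT17, among the 2 most abundant members, had the steadiest level (0.22). A few tumours carried much of this spread, above all vehicle recovery tumour 2 and palbociclib recovery tumour 3.

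KRT5, the basal type II keratin, was the 1 member that passed edgeR's test in any comparison, and it did so after treatment with palbociclib. Its level was 1035, 1054 and 976 CPM in the vehicle initial tumours and 1459, 1914 and 1751 CPM in the palbociclib initial tumours. The lowest treated tumour lay above the highest vehicle tumour, with no overlap. Means were 1022 ± 40.7 and 1708 ± 230 CPM (SD, n = 3 each), and KRT5 rose 1.67-fold (log2 fold change 0.74 ± 0.17 SE, 95% interval 0.38 to 1.11, adjusted p = 0.040 by edgeR's quasi-likelihood test). Of all genes tested, 1.84% were called in this comparison and 0.14% were called higher.

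The call is close to its threshold. It held in 5 of 12 fits that each left out 1 tumour and was lost (adjusted p 0.064 to 0.19) without any of the 6 tumours compared or without palbociclib recovery tumour 2, while the log2 fold change stayed between 0.65 and 0.85. DESeq2 called KRT5 as well (0.75 ± 0.19, adjusted p = 0.0065, with 2.86% of genes called), and edgeR with DESeq2's size factors did not (0.75 ± 0.18, adjusted p = 0.054). The mouse share of counts was 17.0%, 17.6% and 25.4% in the palbociclib initial tumours and 16.5%, 15.5% and 17.4% in the vehicle ones. With that share as a covariate the KRT5 value was 0.67 ± 0.20 (adjusted p = 0.26). Vehicle initial tumour 1, with a mitochondrial share of 1.33%, had 1035 CPM of KRT5, between tumour 2 (5.32%) and tumour 3 (11.2%). Without tumours 2 and 3 the KRT5 log2 fold change was 0.72, with 1 vehicle initial tumour left. With mitochondrial genes left out of the counts, the KRT5 value was 0.74 (adjusted p = 0.041 by edgeR). That fit removes those genes only, and not other features of libraries with a high share. The part of such features, among them the larger share of rows that name no gene in tumours 2 and 3, in the KRT5 value was not tested.

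KRT14, the type I partner of KRT5, was at 932, 975 and 847 CPM in vehicle initial tumours and 1045, 1178 and 1315 CPM in palbociclib initial tumours. These groups did not overlap either, but the log2 fold change of 0.36 ± 0.16 did not pass (adjusted p = 0.46 by edgeR). KRT17 was at 3156, 2976 and 3004 CPM with vehicle and 3341, 3525 and 3343 CPM with palbociclib, again without overlap and with a difference of only 0.16 ± 0.15 (adjusted p = 0.84). Groups lay apart with palbociclib higher for these 3 of 8 members and with palbociclib lower for none, where 9.39% of all genes tested lay apart higher and 11.3% lower. An unadjusted p under 0.05 was found for KRT5, KRT14 and KRT16, 3 of 8, against 9.87% of all genes.

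KRT15, the most abundant member by CPM, measured 3797, 2364 and 3656 CPM with vehicle and 4157, 3796 and 4314 CPM with palbociclib at the end of treatment. Its lowest treated tumour and its highest vehicle tumour were at the same level, and the difference was 0.32 ± 0.33 (adjusted p = 0.86). KRT16 was at 93.1, 80.3 and 123 CPM with vehicle and 121, 157 and 162 CPM with palbociclib, overlapping by 1 tumour (0.57 ± 0.24, adjusted p = 0.45).

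KRT6B showed nearly equal means at the end of treatment, 955 ± 153 CPM with vehicle (817, 1119 and 930) and 968 ± 67.7 CPM with palbociclib (894, 1026 and 985). The log2 difference was 0.02 with a 95% interval of -0.41 to 0.45. KRT6A was at 25.5, 60.9 and 32.2 CPM with vehicle and 39.1, 62.1 and 72.2 CPM with palbociclib, overlapping widely (0.55 ± 0.77, adjusted p = 0.91). TP63, the regulator, was the 1 member with a lower mean under palbociclib: 78.1, 109 and 68.9 CPM with vehicle and 61.4, 76.4 and 68.7 CPM with palbociclib, a difference of -0.31 ± 0.36 (adjusted p = 0.88) within overlapping groups. No TP63 difference was therefore detected in the tumours in which KRT5 rose, within a 95% interval of -1.11 to 0.48.

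**Figure D2:**
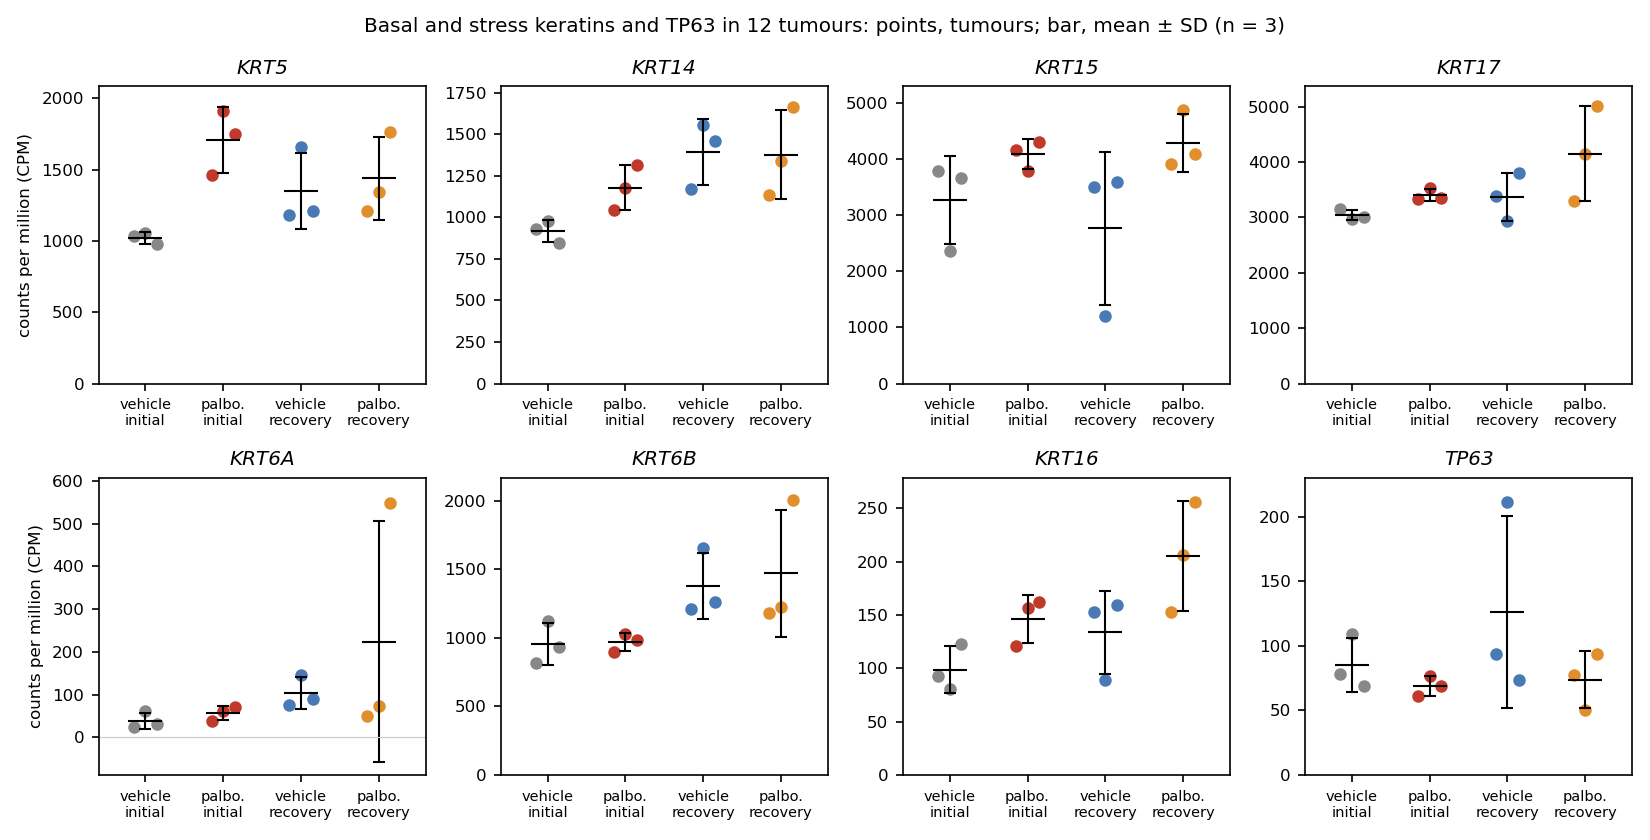
Level (CPM after TMM scaling, linear axis) of the 8 genes in each tumour, by group, with mean and SD of 3 tumours. The palbociclib initial tumours lie above the vehicle initial tumours without overlap for KRT5, KRT14 and KRT17, and palbociclib recovery tumour 3 is the highest of all for KRT6A at 549 CPM.

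Summed over the 7 keratins, 1.02%, 0.862% and 0.917% of human counts fell on these genes in the vehicle initial tumours and 1.17%, 1.22% and 1.21% in the palbociclib initial tumours. The groups did not overlap, and the exact two-sided permutation test gave p = 0.10, the smallest that 3 against 3 tumours allow (Benjamini-Hochberg adjusted p = 0.32 over 16 tests of this kind). After recovery the share was 1.08%, 0.793% and 1.17% with vehicle and 1.14%, 1.36% and 1.47% with palbociclib. The difference in means was 0.308 percentage points there and 0.267 at the end of treatment, but the recovery groups overlapped (exact p = 0.20, adjusted p = 0.46). Relative to its own partner KRT5 had higher values with palbociclib: the log2 ratio of KRT5 to KRT14 counts, which does not depend on library scaling, was 0.16 ± 0.05 with vehicle and 0.53 ± 0.15 with palbociclib (SD, n = 3 each, exact p = 0.10, no overlap). Relative to KRT18, a keratin of simple and luminal epithelium, the log2 ratio of KRT5 was 1.29 ± 0.30 with vehicle and 2.13 ± 0.26 with palbociclib (exact p = 0.10, no overlap).

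After recovery, no difference in KRT5 between the arms was detected. Vehicle recovery tumours had 1185, 1657 and 1211 CPM and palbociclib recovery tumours 1210, 1342 and 1766 CPM, 2 overlapping groups with means of 1351 ± 265 and 1439 ± 290 CPM. The log2 difference was 0.09 ± 0.17 (95% interval -0.27 to 0.46, adjusted p = 0.86 by edgeR). Tested directly, the palbociclib effect on KRT5 was smaller after recovery than at the end of treatment by 0.65 ± 0.24 on the log2 scale, which did not pass over all genes (unadjusted p = 0.017, adjusted p = 0.78). No member passed this test in edgeR, where 0.22% of genes passed and 5.22% had an unadjusted p under 0.05, or in DESeq2, where 0.547% passed. The KRT5 mean in vehicle tumours was higher after recovery (0.40 ± 0.17, adjusted p = 0.33) and in palbociclib tumours lower (-0.25 ± 0.17, adjusted p = 0.57), neither passing the test.

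The KRT5 to KRT14 ratio was lower after recovery in both arms. It was then 0.06 ± 0.05 with palbociclib and -0.05 ± 0.19 with vehicle, with overlapping groups (exact p = 0.60). Within the palbociclib arm the ratio was lower after recovery by 0.47 without overlap, and within the vehicle arm by 0.21 without overlap, each at exact p = 0.10 and adjusted p = 0.32. Without vehicle recovery tumour 3 the vehicle value was -0.10. In the vehicle arm the lower ratio went with higher means of both genes. The palbociclib initial tumours, at 0.48, 0.70 and 0.41, were the highest 3 of the 12.

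**Figure D3:**
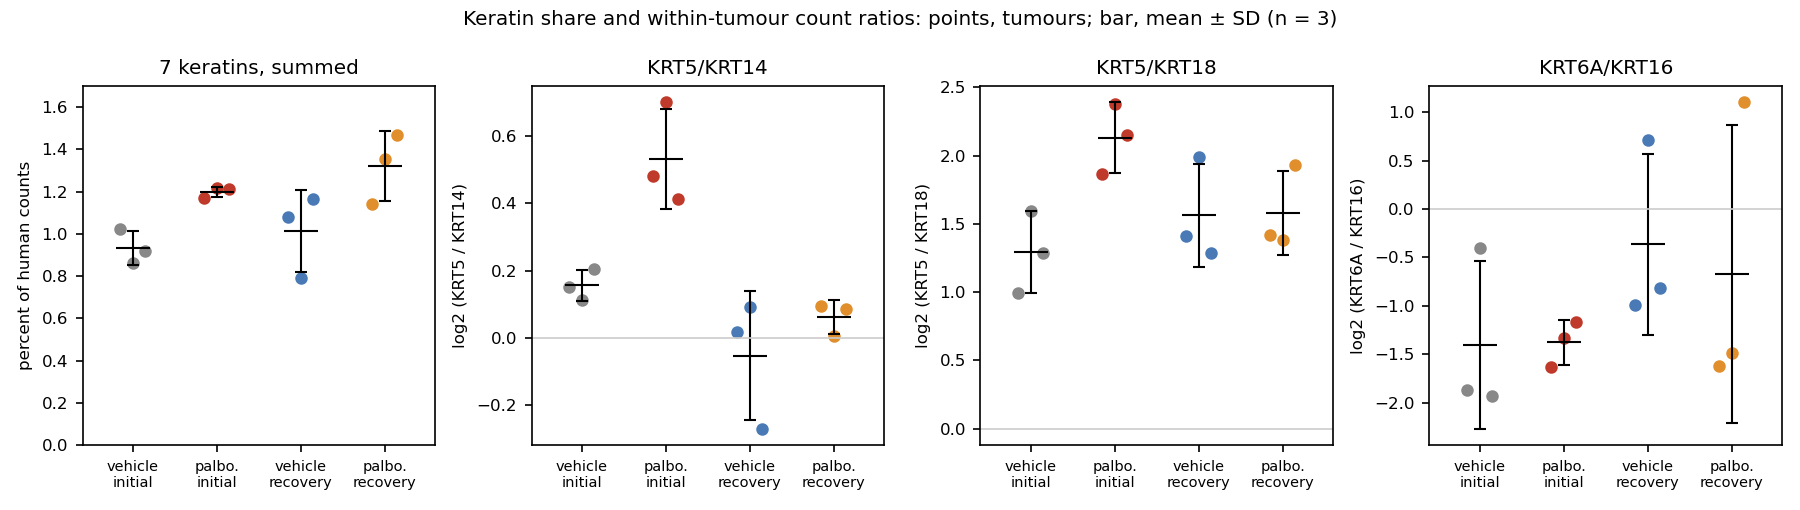
Share of human counts on the 7 keratins (percent) and log2 count ratios within each tumour, by group, with mean and SD of 3 tumours. The KRT5 to KRT14 ratio of the palbociclib initial tumours (0.41 to 0.70) lies above that of all other tumours, while the KRT6A to KRT16 ratio spreads widely within groups.

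KRT14 reached its highest means after recovery in both arms. It was at 1170, 1554 and 1460 CPM with vehicle and 1132, 1338 and 1664 CPM with palbociclib, and the arms did not differ detectably (-0.02 ± 0.16, 95% interval -0.36 to 0.32). Against vehicle initial, all 3 vehicle recovery tumours were higher (0.60 ± 0.16), which did not pass in edgeR (adjusted p = 0.29) and passed in DESeq2 (0.65 ± 0.18, adjusted p = 0.046). Over all genes in this comparison, edgeR called 0% and DESeq2 called 0.522%, and an unadjusted p under 0.05 in edgeR was found for 3 of 8 members (KRT5, KRT14 and KRT6B) and 14.4% of genes. KRT5, KRT14, KRT6A and KRT6B were the 4 members whose vehicle recovery tumours all lay above all vehicle initial tumours, against 6.7% of all genes tested.

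KRT15 and TP63 each had 1 vehicle recovery tumour far from the other 2. KRT15 was at 3504, 1196 and 3591 CPM in vehicle recovery tumours and 3905, 4868 and 4089 CPM in palbociclib recovery tumours, and tumour 2 of the vehicle group was the lowest of all 12. TP63 was at 93.8, 211 and 73.4 CPM with vehicle and 77.4, 50.3 and 94.1 CPM with palbociclib, and the same vehicle tumour was the highest of all 12. The recovery differences of 0.63 ± 0.33 for KRT15 and -0.77 ± 0.36 for TP63 did not pass (adjusted p = 0.58 and 0.57). Without that tumour they were 0.27 ± 0.17 and -0.18 ± 0.27, and the TP63 difference between vehicle recovery and vehicle initial went from 0.56 ± 0.36 to -0.03 ± 0.28.

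Vehicle recovery tumour 2 also carried the most mesenchymal marker RNA. The summed level of 8 mesenchymal markers (VIM, ZEB1, ZEB2, TWIST1, FN1, CDH2, MMP2 and SPARC) was 33807 CPM there, against 17191 and 17311 CPM in the other vehicle recovery tumours. FN1, which encodes the matrix protein fibronectin, made up most of this sum, with group means of 6441 to 21129 CPM against at most 933 CPM for SPARC and 587 CPM for VIM. Across groups the sum ranged from 6560 to 16774 CPM in vehicle initial, 6524 to 8398 CPM in palbociclib initial, 17191 to 33807 CPM in vehicle recovery and 7518 to 26458 CPM in palbociclib recovery tumours. Palbociclib recovery tumour 3, at 26458 CPM, had the second-highest sum. The part of these markers in the KRT15, TP63 and KRT6A values was not tested.

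KRT17 and KRT16 had their highest means in the palbociclib recovery group. KRT17 was at 3299, 4149 and 5014 CPM there and at 3394, 2935 and 3796 CPM in vehicle recovery tumours (0.30 ± 0.15, adjusted p = 0.58). KRT16 was at 153, 207 and 256 CPM against 153, 89.4 and 160 CPM (0.62 ± 0.24, adjusted p = 0.57, overlap at 153 CPM). Neither passed. No member passed at recovery by edgeR, which called 0.00537% of all genes, or by DESeq2, which called 0.113%. An unadjusted p under 0.05 in edgeR was found for 1 of 8 (KRT16), against 8.66% of genes, and KRT15 was the 1 member whose palbociclib tumours all lay above the vehicle tumours, against 6.32%.

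KRT6A showed the largest spread of all members. It was at 76.5, 146 and 90.8 CPM in vehicle recovery tumours and 49.5, 73.8 and 549 CPM in palbociclib recovery tumours, so that 1 tumour stood far above the other 2. The recovery difference of 1.10 ± 0.75 (adjusted p = 0.62) rested on that tumour and was -0.77 ± 0.40 without it. The difference between palbociclib recovery and palbociclib initial likewise went from 1.96 ± 0.77 (adjusted p = 0.27) to 0.09 ± 0.39 without it. In the vehicle arm the groups lay apart (25.5 to 60.9 CPM and 76.5 to 146 CPM, difference 1.41 ± 0.77, adjusted p = 0.40).

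KRT6B followed KRT6A in direction and less in size. Its levels were 1212, 1652 and 1263 CPM in vehicle recovery and 1180, 1222 and 2005 CPM in palbociclib recovery tumours, and the arms did not differ detectably (0.09 ± 0.20, 95% interval -0.33 to 0.52). Against its own initial group, each recovery group was higher without overlap, by 0.53 ± 0.20 with vehicle (adjusted p = 0.33) and 0.60 ± 0.20 with palbociclib (adjusted p = 0.16). Without palbociclib recovery tumour 3 the latter was 0.31 ± 0.17. KRT6B was the 1 member of 8 whose palbociclib recovery tumours all lay above the palbociclib initial ones, against 14.9% of all genes tested. In that comparison no member passed by edgeR, which called 2.82% of genes, or by DESeq2, which called 4.72%. KRT6A and KRT6B, 2 of 8, had an unadjusted p under 0.05 in edgeR, against 14.4% of genes.

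**Figure D4:**
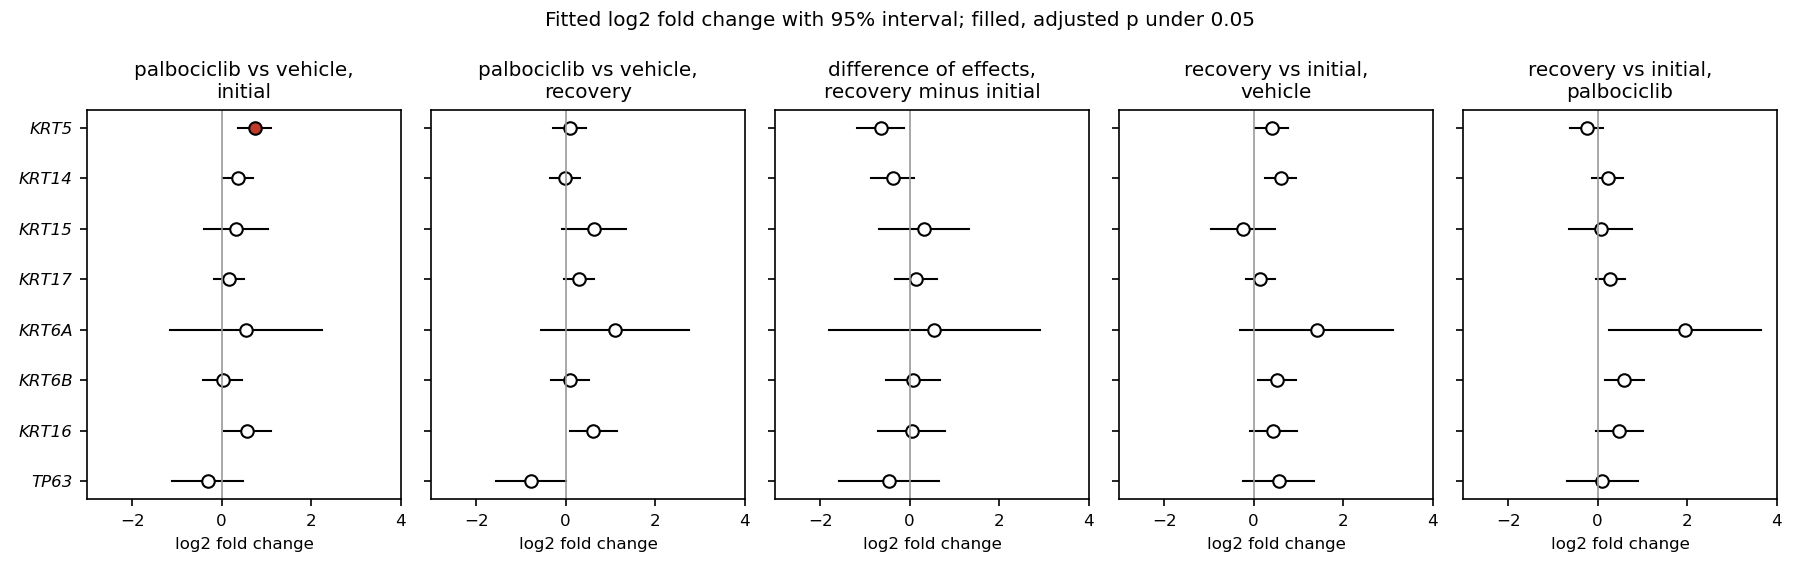
Fitted log2 fold change of the 8 genes with 95% intervals in the 5 comparisons. A filled point marks an adjusted p under 0.05, which 1 value reached, KRT5 at the end of treatment (0.74); the intervals of KRT6A are the widest.

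Read over all 8 members, fold changes leaned upward in 4 comparisons. The median log2 fold change was 0.34 for palbociclib against vehicle in initial tumours, 0.20 after recovery, 0.48 for recovery against initial in vehicle tumours and 0.26 in palbociclib tumours. The medians over all genes tested lay between -0.011 and 0.010. For the difference of the palbociclib effects it was 0.06, with 5 members positive and 3 negative. These comparisons share tumours with one another, and the members share sequence, so the values are not independent of each other.

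Across the 12 tumours, pairs of members differed in how closely they moved. KRT6A and KRT6B were the closest pair of the 7 pairs examined (Pearson r = 0.94 and Spearman rho = 0.92 on log2 CPM, n = 12), and r was 0.87 without the 2 tumours with the most extreme KRT6A. These 2 genes share 28.5% of the 50-base stretches of KRT6A, and the part of shared reads in this relation was not tested. KRT16 and KRT17 had r = 0.89 and rho = 0.90 with 1.00% of the stretches of KRT16 shared, and r was 0.87 without the 2 most extreme tumours. KRT5 and KRT14, the filament partners, had r = 0.69 and rho = 0.74 over all 12 tumours, r = 0.83 when each tumour was taken as its deviation from its group mean, and r = 0.65 without vehicle recovery tumour 2.

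KRT6A and KRT16, partners in stressed epithelium, had r = 0.54 and rho = 0.47, and r was -0.06 without the 2 tumours with the most extreme KRT6A, so that relation rested on them. Without vehicle recovery tumour 2 it was 0.74. The log2 ratio of KRT6A to KRT16 ran from -1.93 to 1.10 over tumours with wide spread within groups. Its mean was higher after recovery by 1.03 in the vehicle arm (exact p = 0.30) and 0.71 in the palbociclib arm (exact p = 0.80), with overlapping groups in each, where 3 against 3 tumours allow no p below 0.10. TP63 had r = 0.15 with KRT5 and 0.31 with KRT14 over 12 tumours. Taken as deviations from group means, the TP63 and KRT5 value was 0.74, and over all tumours without vehicle recovery tumour 2 it was -0.15. KRT14 and KRT15 had r = -0.18, which was 0.41 without that tumour. The tumours share 4 group means and their libraries' scaling, and these values are given as descriptions.

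**Figure D5:**
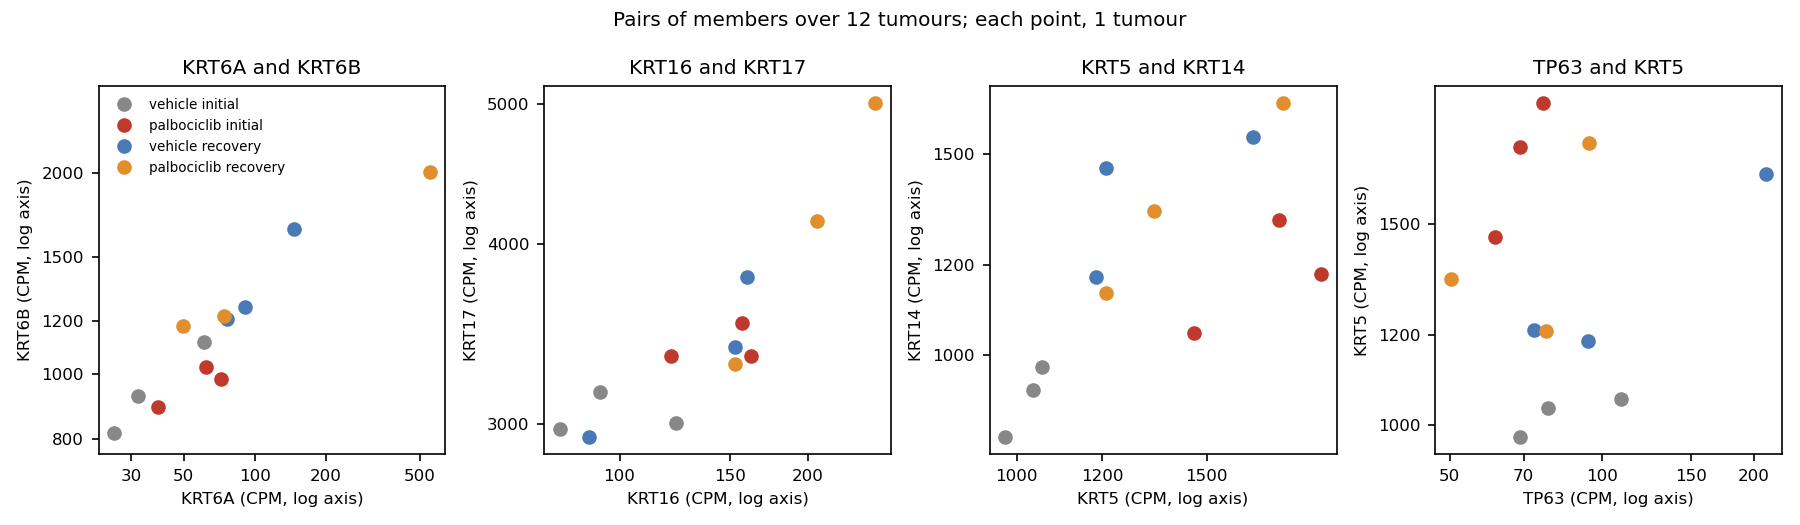
Levels of 4 pairs of genes (CPM, both axes log) in 12 tumours, 1 point per tumour coloured by group. KRT6A with KRT6B and KRT16 with KRT17 line up (r of 0.94 and 0.89), the palbociclib initial tumours lie to the right of the others in KRT5 at a given KRT14, and TP63 with KRT5 shows no common line (r = 0.15).

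Profiles most like those of 4 members were sought among 10823 human genes with a mean log2 CPM of at least 3, by the root mean square distance between mean-centred log2 CPM over the 12 tumours. The nearest to KRT5 were ZMAT3 (0.16), CCND1, which encodes cyclin D1 (0.16), and CROT (0.17), and KRT14 came at place 197 (0.24). The nearest to KRT14 were CSGALNACT1 (0.14), CD59 (0.14) and MGLL (0.15). TP63 was nearest to ARHGEF3 (0.11), TRAM2 (0.11) and SELENON (0.12), with KRT5 at place 7081 and KRT14 at place 5493. For KRT6A the nearest were TCN1 (0.46), NPC2 (0.53) and ZNF365 (0.55). These distances grow with a gene's own spread, which was largest for KRT6A, so they are not comparable between members.

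Genes that work beside the basal keratins were read in the same fit, from lists written with earlier results of these data known. Of 9 hemidesmosome and basement membrane genes, which anchor keratin filaments of basal cells to the matrix, none passed in any comparison by edgeR or DESeq2, and between 0 and 3 had an unadjusted p under 0.05 in edgeR. That count was 2 of 9 for palbociclib against vehicle in initial tumours (9.87% of all genes) and 3 of 9 after recovery (8.66%). It was 0 for the difference of effects (5.22%). For recovery against initial it was 2 in vehicle and 1 in palbociclib tumours (14.4% of all genes in each). Their median log2 fold change with palbociclib was -0.16 in initial and -0.52 in recovery tumours. LAMA3 and LAMB3, which encode laminin chains, did not pass and had log2 values of -0.98 ± 0.42 and -0.60 ± 0.27 with palbociclib at the end of treatment. In that comparison 7 of the 9 values were negative and 2 positive. LAMA3 and LAMB3 spread widely among vehicle initial tumours, at 753 ± 448 and 731 ± 338 CPM (SD). With palbociclib they were at 382 ± 61.3 and 483 ± 47.8 CPM. The summed list was highest in vehicle initial tumour 2 (13873 CPM, against 8648 and 9602 CPM in tumours 1 and 3). Of 13 known targets and partners of p63, 1 passed, between palbociclib initial and palbociclib recovery, where edgeR called 2.82% of all genes. This was S100A2, a calcium-binding protein of basal cells, with means of 1910.5 ± 146 and 4022 ± 1563 CPM (1.07 ± 0.21, adjusted p = 0.011). In the vehicle arm its mean was also higher after recovery (0.61 ± 0.21, adjusted p = 0.32 by edgeR). The difference of the palbociclib effects on S100A2 did not pass (adjusted p = 0.95 by edgeR). The other 12 did not pass in any comparison, and in the initial comparison of palbociclib with vehicle the whole list had 6 positive and 7 negative values, with a median of -0.02.

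Of 7 desmosome genes tested of 8 listed, the plaque protein gene PKP2 rose between palbociclib initial and palbociclib recovery (0.78 ± 0.17, adjusted p = 0.023), and DESeq2 also called PKP3. Over all genes in that comparison, edgeR called 2.82% and DESeq2 4.72%. PKP2 was also higher after recovery in the vehicle arm, without passing (0.48 ± 0.17, adjusted p = 0.32 by edgeR). Of 12 other keratins tested of 15 listed, none passed by edgeR, and DESeq2 called KRT19 and KRT80 for palbociclib recovery against palbociclib initial. In that comparison 6 of the 12 had an unadjusted p under 0.05 in edgeR, against 14.4% of all genes. They were KRT8, KRT19, KRT75, KRT80 and KRT81, with higher values, and KRT4, with a lower one (-1.45 ± 0.48). KRT4 had only 0 to 19 counts per tumour and KRT75 8 to 64. KRT80, a type II keratin of epithelia, had the smallest p among them (1.33 ± 0.33 there, adjusted p = 0.056 by edgeR). KRT8 and KRT18, the simple-epithelium pair, had values of -0.04 ± 0.16 and -0.13 ± 0.14 at the end of treatment.

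Of 11 regulators of basal and squamous cells tested of 13 listed, OVOL1, a transcription factor of epithelial differentiation, rose between palbociclib initial and palbociclib recovery (1.32 ± 0.33, adjusted p = 0.047). In that comparison edgeR called 2.82% of all genes. The OVOL1 value for recovery against initial in the vehicle arm was 0.27 ± 0.32. TP73, the relative of TP63, had between 13 and 49 counts, and SNAI2, a factor of basal and mesenchymal states, had -1.14 ± 0.45 with palbociclib at recovery (adjusted p = 0.57). SNAI2 means were then 39.7 ± 11.6 CPM with palbociclib and 87.4 ± 67.7 CPM with vehicle (SD), a wide spread among the vehicle tumours. The terminal differentiation keratins KRT1 and KRT13 had at most 1 and 8 counts in any tumour, while KRT10, the partner of KRT1, had 74 to 245 and the envelope gene IVL 15 to 299. Among 8 suprabasal markers tested of 13, SPRR1B, a cornified envelope protein gene, rose in palbociclib tumours between initial and recovery (2.98 ± 0.53, adjusted p = 0.0065) at 2 to 34 counts. There edgeR called 2.82% of all genes, and DESeq2, which called 4.72%, called SPRR1B and SBSN higher. Mean SPRR1B was 0.29 and 2.36 CPM in palbociclib initial and recovery tumours and 1.30 and 2.89 CPM in vehicle ones. Its value with palbociclib at the end of treatment was -2.12 ± 0.58 (adjusted p = 0.0998 by edgeR). DESeq2, which called 2.86% of genes there, called it lower. The recovery arms differed by -0.28 ± 0.40. Its value for recovery against initial in the vehicle arm was 1.14 ± 0.44 (adjusted p = 0.33 by edgeR).

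Some myoepithelial markers rose in the same comparison as KRT5. Of 6 tested of 8 listed, the actin-binding gene TAGLN (0.67 ± 0.12, adjusted p = 0.0098) and the myosin kinase gene MYLK (0.73 ± 0.17, adjusted p = 0.040) rose with palbociclib at the end of treatment, and all 6 values were positive. Over all genes in that comparison, 1.84% were called and 0.14% were called higher. The summed level of the 8 listed was 683 to 708 CPM in vehicle initial and 925 to 1114 CPM in palbociclib initial tumours. TAGLN and MYLK fell between palbociclib initial and palbociclib recovery, by 0.63 ± 0.12 for TAGLN (adjusted p = 0.013) and 0.73 ± 0.17 for MYLK (adjusted p = 0.032). There edgeR called 2.82% of all genes, and KRT5 did not pass. Fibroblasts and smooth muscle also express these genes, and in these grafts such cells come from the mouse host. The values here are those of human genes, and how reads that fit both genomes were counted is not given. MYH11 and CNN1 were at or near 0 counts. The part of host reads in the TAGLN and MYLK values was not tested. Of 10 luminal markers tested of 12 and 8 mesenchymal markers, none passed by edgeR, while DESeq2 called KRT19 higher (palbociclib recovery against initial), ZEB2 lower (palbociclib against vehicle, initial) and MMP2 lower (the same at recovery). Of all genes, DESeq2 called 4.72%, 2.86% and 0.113% in these comparisons, in that order. Of 8 markers of host cell types read on human rows, 2 were tested and none passed, PECAM1 having the smallest p (0.70 ± 0.22 at the end of treatment, adjusted p = 0.20), while CDH5, of the same endothelial cells, had at most 6 counts. Of 16 paralogues and pseudogenes of the members, 7 were tested and none passed by edgeR or DESeq2.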

How the data were processed

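RNA of 12 xenograft tumours was sequenced; per the labels' protocols, RNeasy was used for extraction and TruSeq RNA for the libraries. The authors deposited 1 file per tumour of raw counts on human and mouse Ensembl genes. Tools named in the submitters' processing notes are STAR, cutadapt, edgeR and CASAVA 1.8, with no roles, and the builds are GRCh38 and GRCm38; for the counter, its strand setting, its annotation and reads that fit several genes or both genomes, nothing is given in the sources used here. Each file held 4 rows that name no gene (37.0% to 69.1% of counts) and 713 repeated rows with identical counts; both were removed. GENCODE 29 gave symbols for 57980 of 58243 human identifiers, and coordinates, transcripts and sequences.

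Human genes were tested with edgeR 4.0.16 in R 4.3.3: TMM on human totals, filterByExpr (minimum count 10, minimum total 15), robust quasi-likelihood fit of 4 group means over 12 libraries, 5 contrasts, and Benjamini-Hochberg adjustment over 18628 genes (common biological coefficient of variation 0.18). A gene passed, was called, rose or fell at an adjusted p under 0.05. The fit was checked on simulated counts with known changes. Alternatives were DESeq2 1.42.0 and its size factors, other filters, fewer samples, the mouse share as covariate and no mitochondrial genes. Ratios and shares were computed from counts without a pseudocount (0.5 was an alternative for ratios) and tested by exact permutation, two-sided, and pairs of genes by 100000 permutations. Named genes are the 8 members and, of each list, those called (at most 3) or the 1 with the smallest p; other genes named were chosen after their values were seen. Members, lists and tests were chosen with earlier results of these data known.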

Additional observations from a re-analysis of the deposited data

How the results depend on the processing

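At the end of treatment KRT5 kept its direction under every alternative run. In all 5 comparisons no other member passed in edgeR except without the low-count filter. In that fit 38457 genes were tested and the estimated prior degrees of freedom became infinite (5.99 for KRT5 with the filter), so gene-specific spread was ignored. The number of members called was then 3 at the end of treatment, 4 after recovery, 4 for vehicle and 3 for palbociclib recovery against initial. At the end of treatment no member was called with DESeq2 size factors in edgeR, with the mouse share as covariate, or without vehicle initial tumours 2 and 3 (KRT5 0.72, adjusted p = 0.76, with 1 vehicle tumour assumed to vary like the other groups), and leave-one-out fits called 0 to 1. DESeq2 called 1 member (KRT14) in vehicle recovery against initial.

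None of the values that changed sign had passed in edgeR, and except where stated the cause was not tested. In the initial comparison of palbociclib with vehicle, KRT6B was -0.036 with the mouse covariate and -0.075 with the 9 tumours whose label numbers lie close together. Those 9 hold 1 vehicle recovery and 2 vehicle initial tumours, and the lone tumour is assumed to vary like the other groups. After recovery, KRT14 was 0.018 with the stricter filter and TP63 0.017 with those 9 tumours. For the difference of effects, those 9 tumours gave KRT15 -0.19, KRT17 -0.058, KRT16 -0.17 and TP63 0.39. Without vehicle initial tumours 2 and 3, KRT6A was -0.084, KRT6B -0.16 and KRT16 -0.040, and with the mouse covariate KRT16 was -0.0074. For vehicle recovery against initial the 9 tumours gave KRT15 0.26 and TP63 -0.28. The relation of TP63 and KRT5 was 0.74 as deviations from group means and -0.17 without the 2 most extreme tumours, and that of KRT6A and KRT16 was -0.062 without them.

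For palbociclib against vehicle in initial tumours, leaving out 1 tumour at a time gave the log2 ratio KRT6A/KRT16 -0.24 to 0.52 and KRT6B -0.078 to 0.15. For the same after recovery it gave the log2 ratio KRT6A/KRT16 -1.19 to 0.24, the log2 ratio KRT5/KRT18 -0.16 to 0.23, KRT5 -0.086 to 0.27, KRT14 -0.18 to 0.10, KRT6A -0.77 to 1.57 and KRT6B -0.20 to 0.25. For palbociclib recovery against initial it gave the log2 ratio KRT6A/KRT16 -0.18 to 1.18, KRT15 -0.033 to 0.13 and TP63 -0.11 to 0.32. For the difference of effects it gave KRT15 -0.049 to 0.54, KRT17 -0.023 to 0.28, KRT6A -1.32 to 1.02, KRT6B -0.22 to 0.23, KRT16 -0.18 to 0.22 and TP63 -0.75 to 0.13. For vehicle recovery against initial it gave KRT15 -0.47 to 0.12 and TP63 -0.027 to 0.86. Without vehicle recovery tumour 2 the correlations were KRT5 and KRT14 0.65, KRT6A and KRT16 0.74, KRT14 and KRT15 0.41, TP63 and KRT5 -0.15 and TP63 and KRT14 -0.038.

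No paired analysis was possible because the labels give no replicate number shared between groups. The lowest count of a member was 204, in KRT6A. Exact tests of 3 against 3 could not go below p = 0.10.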
